A study of Mus musculus with 24 samples.

Results

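The 10 genes described here, of the 9834 genes with 1 symbol on the arrays, encode much of the contractile apparatus of fast-twitch skeletal muscle fibres. They were chosen from earlier results of these same arrays, in which lung and brown adipose tissue ratios were in view, and are measured by the 13 probes whose platform symbol is Tnnc2, Tnni2, Tnnt3, Myoz1, Mylpf, Myl1, Myh1, Myh4, Ckm or Atp2a1. These 10 are called the members. Their lung and brown adipose tissue values are therefore given as a description: counts past limma's threshold there stand beside the share of all rows and are no test of the genes. Probes of 1 symbol were averaged on each array.

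Nur77-/- mice, which lack the orphan nuclear receptor encoded by Nr4a1, were compared with wild-type (Nur77+/+) mice in lung, brown adipose tissue, skeletal muscle, heart, spleen and testis. Each organ had 4 two-colour arrays, 24 in all, with the mutant RNA in Cy5 on replicates 1 and 2 and in Cy3 on replicates 3 and 4. The design text gives 7 pooled mice on each side, while the labelling protocol gives a control pool of 6 animals. The labels used here give the genotype and organ of each channel, and no age, sex, strain or treatment. The 4 arrays of an organ are repeated hybridisations of 1 pair of pools, so every p-value measures the error between hybridisations and not the spread between mice. On heart replicate 2 the label of the wild-type channel names skeletal muscle, and heart values are given with and without it.

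Skeletal muscle shortens when myosin heads pull on actin filaments, and calcium switches this on through the troponin complex of the thin filament. Fast-twitch fibres use their own isoforms of troponin, of the myosin heavy and light chains and of the calcium pump that ends each contraction. Their RNAs are abundant in limb and trunk muscle. Nur77 is known in skeletal muscle for the control of genes of glucose and glycogen use.

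All values are log2 ratios of the Nur77-/- pool over the wild-type pool, so a value of 1 is a 2-fold higher signal in the mutant pool. That direction is likely but is not stated with the values. A ratio carries no level, so the labelled organ could not be checked against the levels of its markers, and fewer muscle cells in a piece of tissue cannot be told apart from less RNA per cell. The arrays held 13396 to 19455 values each, and array medians ran from -0.78 to 0.67. Within 1 organ, the median Spearman rho between arrays was 0.116 for arrays labelled alike and -0.045 for arrays with exchanged dyes. Nr4a1 itself, the targeted gene, passed limma's test in skeletal muscle (-1.73 ± 0.31, SE; adjusted p = 0.00222). Its ratios elsewhere ran from -1.14 ± 0.26 (brown adipose tissue) to -0.24 (testis), with -0.38 in lung. In every organ its mean was below 0 in both dye orientations. In brown adipose tissue these means were -1.16 (mutant in Cy5) and -1.12 (mutant in Cy3). Of its single arrays, testis replicate 4 (0.08) was above 0.

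The promoters of 7 of the 10 genes are in the RefSeq promoter table (GRCm38.p6); those of Tnni2, Tnnt3 and Myoz1 are named only. Of the 7, 4 are shown as the 250 bases before the transcription start, because they belong to the neighbouring heavy chain genes, to the gene with the lowest lung ratio and to the gene that went the other way in lung. Capitals mark a MEF2 motif, the site of a muscle transcription factor family, or an E-box (CANNTG), the site of MyoD-type factors.
Myh1, chr11:67199852-67200101, plus strand: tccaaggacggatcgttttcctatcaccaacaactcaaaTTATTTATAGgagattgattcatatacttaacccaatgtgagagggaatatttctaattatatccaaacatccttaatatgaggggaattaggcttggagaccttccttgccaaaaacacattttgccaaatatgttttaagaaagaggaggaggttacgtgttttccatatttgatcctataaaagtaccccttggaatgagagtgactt
Myh4, chr11:67237562-67237811, plus strand: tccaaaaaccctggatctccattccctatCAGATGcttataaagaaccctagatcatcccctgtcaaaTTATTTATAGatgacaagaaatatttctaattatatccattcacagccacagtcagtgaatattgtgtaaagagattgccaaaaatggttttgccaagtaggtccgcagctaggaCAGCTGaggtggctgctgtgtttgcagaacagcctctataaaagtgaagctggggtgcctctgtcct
Tnnc2, chr2:164779735-164779984, minus strand: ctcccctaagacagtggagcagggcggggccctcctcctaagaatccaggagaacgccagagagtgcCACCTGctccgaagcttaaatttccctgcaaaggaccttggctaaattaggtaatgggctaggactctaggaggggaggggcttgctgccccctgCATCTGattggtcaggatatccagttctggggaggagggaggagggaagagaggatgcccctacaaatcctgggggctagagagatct
Mylpf, chr7:127211358-127211607, plus strand: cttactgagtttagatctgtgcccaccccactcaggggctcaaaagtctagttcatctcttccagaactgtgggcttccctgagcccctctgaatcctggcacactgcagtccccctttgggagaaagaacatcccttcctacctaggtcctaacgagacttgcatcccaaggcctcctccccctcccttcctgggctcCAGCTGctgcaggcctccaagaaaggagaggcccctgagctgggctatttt
The MEF2 motif was searched by name on both strands and was in 2 of the 7 promoters and in 2.92% of all 32851 promoters of the table. Myh1 held it from base -211 to -202 and Myh4 from -182 to -173, with the same letters TTATTTATAG, counted back from the start. An E-box, which reads the same on both strands in its fixed letters, was in 6 of the 7 (all but Myh1) and in 66.2% of all promoters. The Nur77 response element AAAGGTCA was searched on both strands as well; it was in 0 of the 7 and in 1.34% of all promoters, and its 7-base core AAGGTCA in 0 of the 7 and in 4.08%. A matching run of letters is a description of the window and not a binding site. Gene positions below are those of the RefSeq gene table, of the same build. By these positions the Mylpf and Myl1 windows lie inside their genes, and the Atp2a1 window partly overlaps its gene. Each of these windows therefore precedes an internal start and not the outermost start of the gene.

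In lung, 9 of the 10 genes had a mean ratio below 0 (51.1% of all 12365 rows did), and all 9 were at least 2-fold lower in the Nur77-/- pool (7.2% of rows). The median of the 10 was -1.51, against -0.01 for all rows. Because these values chose the genes, nothing is read from the comparison. Mylpf was the exception, with ratios above 0. With the signs of the Cy3 arrays turned, which reads the values as Cy5 over Cy3, 8 of the 10 lung ratios were below 0 with a median of -0.27, Mylpf had -0.42, and Tnni2 (0.16) and Myl1 (0.61) were above 0.

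The thin-filament troponins come first. Tnnc2 is fast troponin C, the calcium sensor (chr2:164777161-164779734), and had lung ratios of -1.91, -6.74, -2.43 and -2.74 on replicates 1 to 4, a model ratio of -3.46 ± 0.54 (SE). Tnni2, fast troponin I, the inhibitory subunit (chr7:142441816-142444410), had -1.66, -2.00, -2.41 and -1.90, a ratio of -1.99 ± 0.34. Both were below 0 on every lung array, and replicate 2 of Tnnc2 was far lower than the other arrays. Tnnt3, fast troponin T, which ties the complex to tropomyosin (chr7:142498771-142516213), had -3.00, -0.10, -1.27 and -1.50, a ratio of -1.47 ± 0.43. Its 2 probes disagreed on replicate 2, at 1.90 and -2.09.

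Myoz1 encodes a Z-disc protein that binds calcineurin and alpha-actinin (chr14:20649102-20656540). Its lung ratios of -1.19, -3.12, -1.86 and -1.66 gave -1.96 ± 0.29. All 4 arrays were below 0, again with replicate 2 the lowest.

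The myosin light chains went in opposite directions. Mylpf, the fast regulatory light chain (chr7:127208848-127214288), had 2.41, 0.45 and 3.84 on replicates 1, 3 and 4, a ratio of 2.19 ± 0.51, and no value on replicate 2. Every array that measured Mylpf was above 0. Myl1, the fast essential light chain (chr1:66924295-66947932), had -1.66, 0.16, -1.80 and -2.15, a ratio of -1.36 ± 0.35. On replicate 2 the 2 Myl1 probes read -1.61 and 1.94, so the array above 0 rests on 1 probe.

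Myh1 and Myh4 encode the fast heavy chains of type IIx and IIb fibres and lie side by side (chr11:67200102-67224577 and chr11:67237812-67260447). Myh1 had -1.48, -1.62, -1.49 and -1.46, a ratio of -1.51 ± 0.30 and the narrowest spread of the 10 genes in lung. These values are means of 2 probes, which read -1.08 and -1.90 on replicate 3. Myh4 had -2.45 and -2.53 where the mutant carried Cy5, 1.29 on replicate 3 and no value on replicate 4, a ratio of -1.08 ± 0.58. The Myh4 arrays thus had opposite signs in opposite dye orientations. Myosin heavy chain genes are near-identical in sequence, and how far the probes cross-hybridise was not tested.

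Ckm, muscle creatine kinase, which buffers ATP (chr7:19411094-19421583), had -2.30, -2.50, -2.07 and -1.36, a ratio of -2.06 ± 0.41. Atp2a1, the fast-fibre calcium pump SERCA1 (chr7:126445858-126463103), had -1.65, -2.26, 0.42 and -2.54, a ratio of -1.51 ± 0.49. Ckm was below 0 on all 4 arrays and Atp2a1 on 3.

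Over the lung arrays, 6 of the 10 genes were below 0 wherever measured (9.33% of rows were). By limma's test, 3 were called lower (Tnnc2, Tnni2 and Myoz1; 0.0728% of rows were) and 0 higher (0.00809% of rows). These 3 calls come from the contrast that chose the genes, and nothing is read from them. The lower count was 5 with array weights (Myh1 and Ckm besides), 1 with each array centred (Tnnc2) and 0 with lung fitted alone, and the higher count 0 in each. With a 1-probe rule, taking for each gene the probe with most values, 5 of the 10 were called (Myl1 and Myh1 besides the 3), and without lung replicate 2, a setting added after seeing the data, 1 was (Tnnc2, at -2.26).

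**Figure D1:**
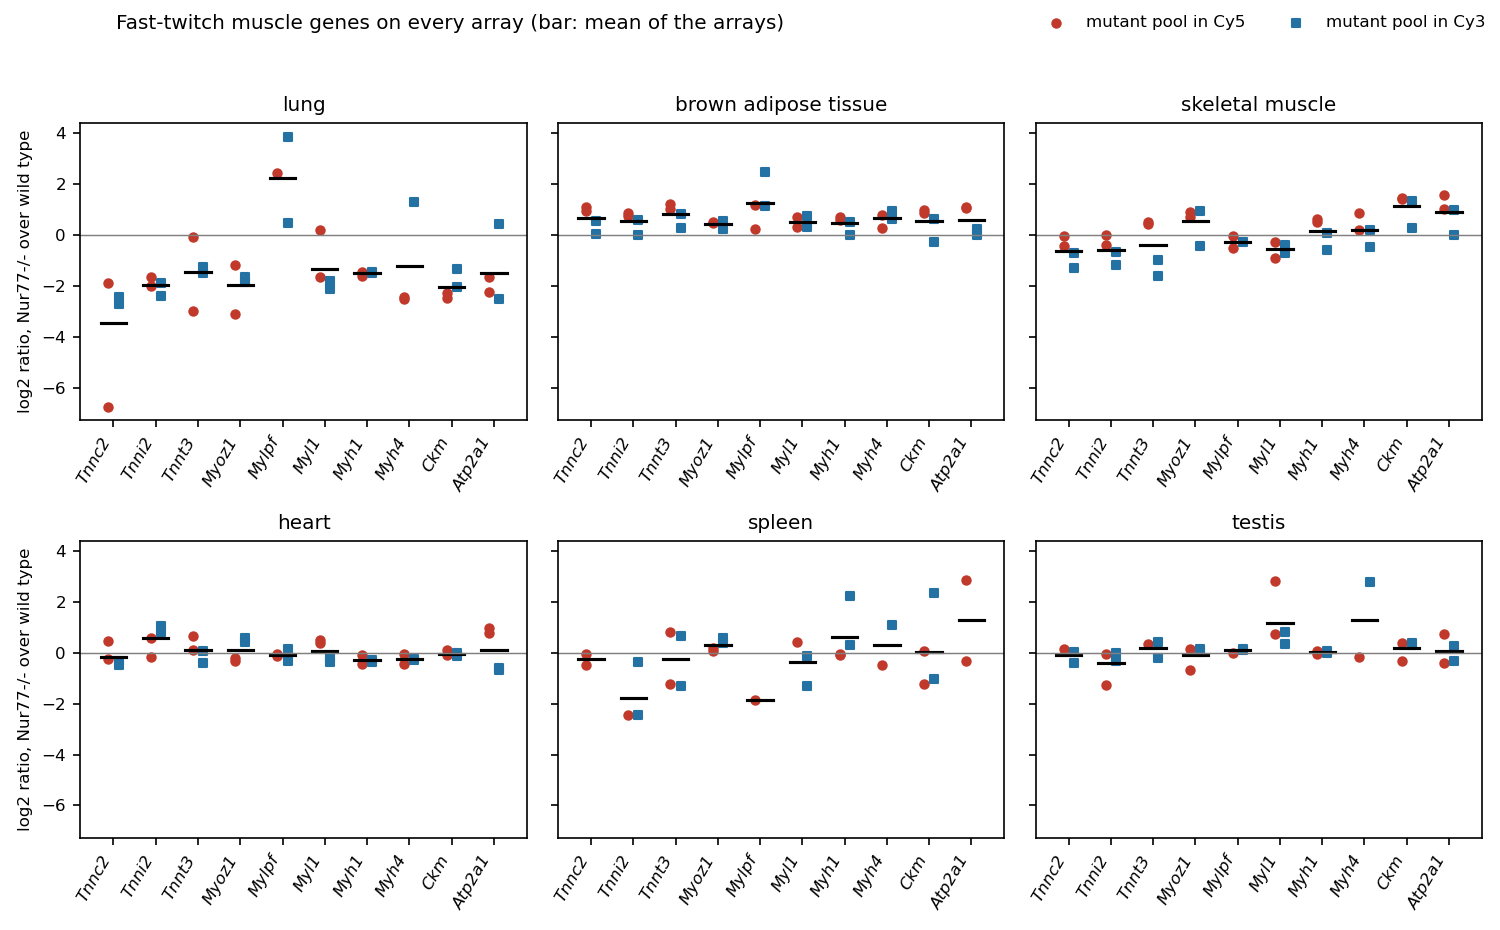
Log2 ratio, Nur77-/- over wild type (vertical axis), of each of the 10 genes on every array that measured it, 1 panel per organ; red circles are arrays with the mutant pool in Cy5, blue squares arrays with it in Cy3, and bars the mean of the arrays. The lung means are below 0 for 9 genes and above 0 for Mylpf, and the 4 brown adipose tissue arrays have 10, 10, 9 and 7 genes above 0.

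In brown adipose tissue all 10 genes had a mean ratio above 0 as deposited (39.1% of 15223 rows did), and 7 of 10 had one above 0 with the signs of the Cy3 arrays turned (Mylpf -0.55, Myh4 -0.13 and Myl1 -0.00 were below it). Their median was 0.56, against -0.07 for all rows. The ratios were smaller than in lung and lay between 0.43 (Myoz1) and 1.24 (Mylpf). All 40 gene and array values were measured there.

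Mylpf had the highest ratio as deposited and the lowest with turned signs, with 0.23, 1.15, 1.14 and 2.45, a ratio of 1.24 ± 0.44. The other light chain, Myl1, had 0.31, 0.70, 0.31 and 0.71, a ratio of 0.51 ± 0.35. Both were above 0 on every array. Among the troponins, Tnnt3 had 1.18, 1.01, 0.25 and 0.81 (0.81 ± 0.43), Tnnc2 0.91, 1.10, 0.54 and 0.03, and Tnni2 0.86, 0.72, 0.59 and -0.01. Of these, Tnnt3 and Tnnc2 were above 0 on all 4 arrays and Tnni2 on 3.

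Myoz1 was above 0 on each array, at 0.49, 0.45, 0.23 and 0.54. Myh4 was too, at 0.77, 0.24, 0.91 and 0.62, while Myh1 had 0.68, 0.56, -0.00 and 0.52. Ckm (0.84, 0.97, 0.63 and -0.30) and Atp2a1 (1.06, 1.08, 0.21 and -0.03) were above 0 on 3 arrays, with the exception in the same array, replicate 4. In all, 6 of the 10 genes were above 0 on every array (3.36% of rows were), and the same number were above their array's median on every array (6.7% of rows). limma called 0 of the 10 (0% of rows), from which nothing is read; 1, Mylpf, had an unadjusted p under 0.05 (0.67% of rows), and the fit with array weights called 0 as well.

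The lung and brown adipose tissue arrays did not overlap for 7 of the 10 genes: every lung array lay below every brown adipose tissue array for Tnnc2, Tnni2, Tnnt3, Myoz1, Myl1, Myh1 and Ckm (1.88% of 11924 rows). Tnnc2, Tnnt3 and Myoz1 were below 0 on every lung array and above 0 on every brown adipose tissue array (0.294% of rows). Nothing is read from these counts, since both organs chose the genes. The arrays of Mylpf overlapped between these organs, as did those of Myh4 and Atp2a1.

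**Figure D2:**
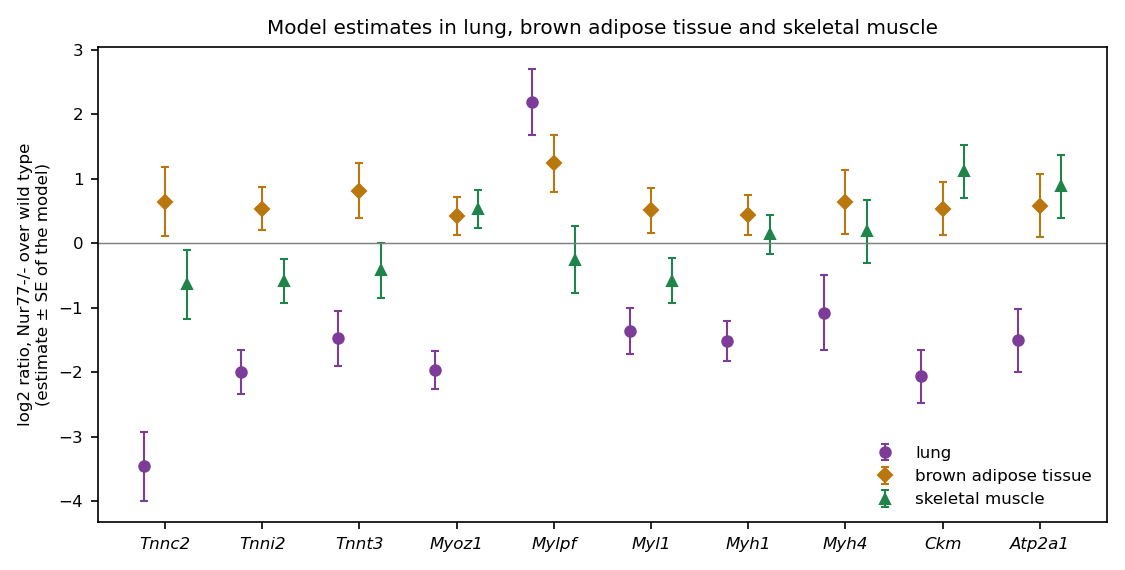
Model log2 ratio, Nur77-/- over wild type, of each gene in lung, brown adipose tissue and skeletal muscle; points are the model's organ ratios and bars their standard errors. Lung ratios lie between -3.46 and 2.19, brown adipose tissue ratios between 0.43 and 1.24, and skeletal muscle ratios between -0.63 and 1.11.

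In skeletal muscle, the tissue in which these genes are chiefly expressed, the 10 genes did not move as 1 group. Ckm and Atp2a1 had the highest ratios and the troponins and light chains ratios below 0, and none of the 10 passed limma's test. The median was -0.06, against -0.16 for all rows, and 5 genes had a mean below 0 (58.2% of rows) and 5 one above it (41.8%). With each array centred on its median, which raises the median of all rows to -0.00, the members' median was 0.21 and 6 genes were above 0.

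Ckm had 1.46, 1.40, 1.32 and 0.28 in skeletal muscle, all above 0, a ratio of 1.11 ± 0.41 (limma, unadjusted p = 0.0135, adjusted p = 0.128). Atp2a1 had 1.01, 1.57, 0.98 and -0.02, a ratio of 0.88 ± 0.49 (limma, adjusted p = 0.328). Replicate 4 was the lowest array for both. Myoz1 had 0.70, 0.91, 0.94 and -0.43, with the same array lowest.

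The troponins Tnnc2 (-0.43, -0.06, -0.73 and -1.32; ratio -0.63 ± 0.54) and Tnni2 (-0.02, -0.42, -0.69 and -1.20; ratio -0.58 ± 0.34) were below 0 on all 4 arrays. Tnnt3 had 0.40 and 0.51 with the mutant in Cy5 and -0.98 and -1.61 with it in Cy3, so its sign changed with the dye. Myl1 had -0.90, -0.29, -0.72 and -0.40, a ratio of -0.58 ± 0.35. Its probe with most values alone gave -0.87 and passed limma's test (adjusted p = 0.0228), while the mean of both Myl1 probes did not.

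Mylpf had -0.06, -0.53 and -0.29, and no value on replicate 4. Myh1 (0.60, 0.48, 0.07 and -0.59) and Myh4 (0.86, 0.19, 0.18 and -0.49) were above 0 on replicates 1 to 3 and below it on replicate 4. On all arrays with a value, 0 genes were above the array's median (10.7% of rows) and 0 below it (9.55%). By count, 0 of 10 were called lower (2.22% of rows were) and 0 higher (3.36% of rows); 1, Ckm, had an unadjusted p under 0.05 (20.2% of rows), and the fit with array weights called 0. Below 0 on every array were 4 of 10 (14.2% of rows), and above 0 on every array 1 (8.4%).

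The array medians of the 10 genes in skeletal muscle were 0.50 and 0.33 with the mutant in Cy5, and -0.11 and -0.49 with it in Cy3. Relative to the medians of all values on the same arrays they were 0.93, 1.11, -0.10 and -1.16. The 2 orientations did not overlap. In lung the members' array medians were -1.66 and -2.26 in Cy5, and -1.64 and -1.66 in Cy3. In brown adipose tissue they were 0.80 and 0.85 in Cy5, and 0.42 and 0.53 in Cy3, so both orientations lay on the same side of 0 in these organs. Lung and brown adipose tissue chose the genes, and nothing is read from that likeness of the orientations.

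**Figure D3:**
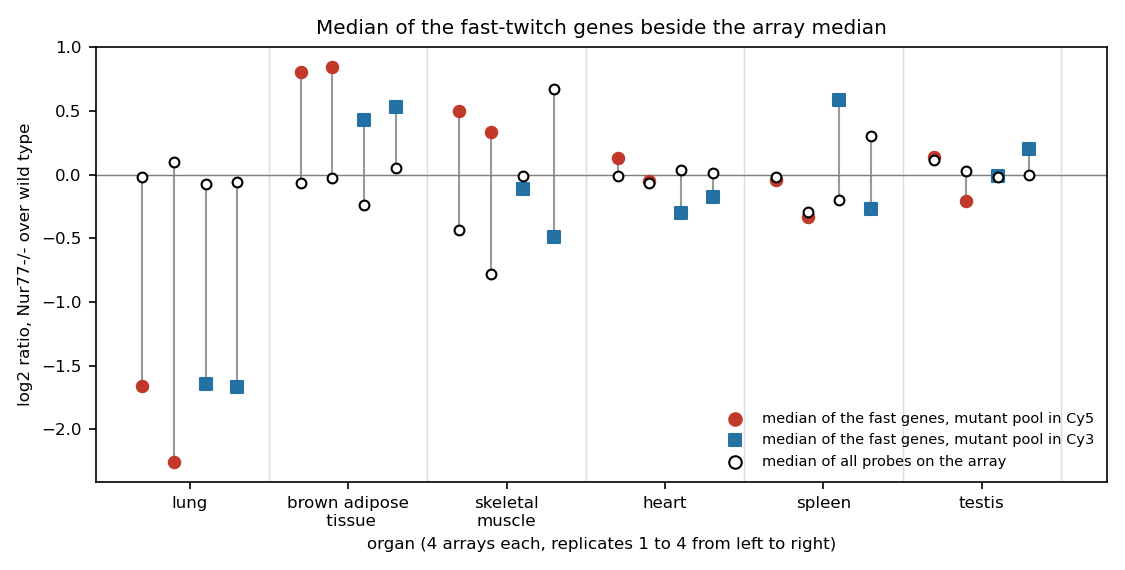
Median log2 ratio, Nur77-/- over wild type, of the measured members on each array, by organ and in replicate order (red circles, mutant pool in Cy5; blue squares, Cy3), joined by a line to the median of all probes of that array (open circles). Lung arrays lie between -2.26 and -1.64, brown adipose tissue arrays between 0.42 and 0.85, and the skeletal muscle arrays lie on opposite sides of 0 in the 2 dye orientations.

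Gene by gene, the means of the 2 dye orientations had the same sign for 9 of 10 genes in lung (all but Myh4; 47.9% of rows) and for 10 of 10 in brown adipose tissue (45.4%). Both organs chose the genes, so nothing is read from these counts. In skeletal muscle they had it for 7 of 10 (47%; not Tnnt3, Myh1 and Myh4) and in heart for 5 of 10 (45.6%). In spleen it was 3 of the 6 genes measured well enough to be tested (51.5%), and in testis 5 of 9 (48.6%). limma's dye term, fitted over all organs at once, called 0 of the 6 genes that were testable in every organ (0.225% of rows). Myl1 was 1 gene with an unadjusted p under 0.05 (12.7% of rows): its dye term was 0.68 ± 0.29, with an adjusted p of 0.351 by limma, and with array weights 0 were called.

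In heart the 10 genes had a median ratio of 0.01, against -0.02 for all rows. The ratios ran from -0.30 ± 0.30 (Myh1) to 0.57 ± 0.34 (Tnni2). Below 0 on all 4 arrays were 2 of 10 (9.15% of rows), the fast heavy chains: Myh1 had -0.47, -0.08, -0.29 and -0.38, and Myh4 had -0.46, -0.06, -0.24 and -0.29. limma called 0 of 10 (0% of rows), 0 had an unadjusted p under 0.05 (2.05% of rows), and array weights called 0. On replicate 2, whose wild-type channel is labelled skeletal muscle, the members lay between -0.33 (Myoz1) and 0.96 (Atp2a1). Their median there was -0.05, against 0.13, -0.31 and -0.18 on replicates 1, 3 and 4. Which organ the wild-type channel of replicate 2 held was not tested. Without that array the members' heart median was -0.10.

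In spleen 6 genes could be tested, and Tnni2 fell. It had -2.46, -2.46 and -0.39 on replicates 1, 3 and 4, with no value on replicate 2, a ratio of -1.78 ± 0.39 (limma, adjusted p = 0.0256), and was 1 of 6 genes called lower (0.936% of rows); 0 were called higher (0.597%), also with array weights. Array weights gave Tnni2 an adjusted p of 0.176, and without replicate 3 of every organ it was 0.251. Of 9 exocrine pancreas markers tested in spleen, 7 fell as well (median -4.26, array medians -4.70, -5.38, -3.96 and -4.77), Ctrl, Cela3b, Ctrb1 and Cpa1 among them. Of the other 2, named after their values were seen, Sycn had -1.90 and Cpb1 1.89, above 0 on its 3 arrays. The part of these cells in the Tnni2 ratio was not tested. Myoz1 was above 0 on all 4 spleen arrays (0.17, 0.07, 0.59 and 0.36; ratio 0.30 ± 0.29). Ckm was spread widely, with 0.04, -1.24, 2.33 and -1.03.

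Tnnc2, Mylpf, Myh4 and Atp2a1 had too few spleen values to be tested. Atp2a1 had 2.86 and -0.34, Tnnc2 -0.06 and -0.48, Myh4 -0.49 and 1.07, and Mylpf -1.85 on its only array. In all, 29 of 40 gene and array values were measured in spleen, against 38 in lung and 39 in skeletal muscle.

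In testis 9 genes could be tested and 0 were called (0% of rows); 1, Myl1, had an unadjusted p under 0.05 (3.62% of rows), and array weights called 0. Myl1 had 0.73, 2.82, 0.82 and 0.34, all above 0, a ratio of 1.18 ± 0.35 (limma, unadjusted p = 0.00328, adjusted p = 1). On replicate 2 the 2 Myl1 probes read 0.58 and 5.07. The first of these probes alone had 0.73, 0.58, 0.73 and 0.01. The second had 0.90 and 0.67 on replicates 3 and 4, and no value on replicate 1. The ratios of the other 8 genes lay between -0.42 (Tnni2) and 0.27 (Tnnt3). Myh4 had -0.16 and 2.75 on the 2 arrays that measured it.

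A limma F test asked whether the organs differed for the 6 genes testable in all 6 organs (Tnni2, Tnnt3, Myoz1, Myl1, Myh1 and Ckm). Over skeletal muscle, heart, spleen and testis 0 of the 6 were called (1.37% of rows). Lung and brown adipose tissue, whose ratios were in view when the genes were chosen, were left out there. Whether earlier results of the remaining organs bore on the choice is not known. Tnni2 had an unadjusted p of 0.00246 (limma, adjusted p = 0.101) and Myl1 one of 0.0136 (limma, adjusted p = 0.215), and the fit with array weights called 1, Tnni2 (adjusted p = 0.0441). Over all 6 organs 2 were called, Tnni2 and Myoz1 (0.98% of rows), from which nothing is read, since lung and brown adipose tissue are among them.

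Across the 24 arrays the 10 genes followed each other unequally. The 45 pairs had a median Pearson r of 0.45, from -0.59 to 0.88, over arrays that share the same pools, dyes and arrays' medians. Lung and brown adipose tissue, which chose the genes, supply some of these arrays, so no r between members is read as a result. Tnnc2 had the highest median r with the other members, 0.64 over its 21 arrays. Mylpf had the lowest, -0.41 over 18 arrays.

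Of 6547 genes outside the members with values on at least 20 arrays, those most like the members' mean were Lce1i (r = 0.74 over 21 arrays), Fam98c (0.71, 22), Rab4b (0.71, 20), Vrk1 (0.70, 22) and Sst (0.69, 20). With each array centred they were Rab4b (0.76, 20), Itih2 (0.75, 21), Cdc37l1 (0.74, 23), Hspb6 (0.74, 22) and Lce1i (0.73, 21). Mean lung ratios as deposited were -2.68 for Lce1i, -2.46 for Rab4b, -2.21 for Vrk1, -2.21 for Sst and -1.66 for Fam98c. With each array centred, those of Hspb6, Itih2 and Cdc37l1 were -1.53, -1.46 and -0.55. The ranking uses the lung and brown adipose tissue arrays that chose the members, so nothing is read from these ratios.

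Other muscle lists were described beside the members, with their medians and counts and with no test of the list. The other fast-fibre genes, which hold calcium-handling and glycolytic genes, had a median of 0.21 in lung (9 tested, 4 below 0), 0.42 in brown adipose tissue (12 tested, 8 above 0) and 0.15 in skeletal muscle (10 tested). The named genes of this list that did not pass were picked after their values were seen. In lung Ryr1, the calcium release channel, had -0.97 and was below 0 on all 4 arrays, and Casq1, a calcium-storing protein of the sarcoplasmic reticulum, had -0.80. Pvalb, a calcium buffer of fast fibres, had 0.37. In brown adipose tissue Casq1 had 0.94 and Tmod4, which caps thin filaments, 0.61, both above 0 on all 4 arrays, against -0.25 for Pvalb.

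Genes common to all striated muscle had medians of -0.20 in lung (11 tested, 9 below 0), 0.12 in brown adipose tissue and -0.12 in skeletal muscle. Slow-fibre genes had -0.18 in lung (10 tested), 0.13 in brown adipose tissue and -0.10 in skeletal muscle, and cardiac genes -0.35 in lung (4 tested), 0.07 and -0.14. The slow and cardiac regulatory light chain Myl2 rose in lung, by 1.61 ± 0.25 (limma, adjusted p = 0.0125), 1 of 10 slow-fibre genes (0.00809% of rows). In spleen Myh7, the slow heavy chain, rose by 3.62 ± 0.86 (limma, adjusted p = 0.0406), 1 of 9 (0.597% of rows).

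In skeletal muscle several large muscle genes passed limma's test that are not among the 10. The giant filament gene Ttn rose by 1.53 ± 0.29 (limma, adjusted p = 0.00331), Nrap, a myotendinous and intercalated-disc protein, rose by 1.12 ± 0.24 (limma, adjusted p = 0.00906), Neb, the ruler of the thin filament, rose by 2.04 ± 0.33 (limma, adjusted p = 0.000729), and Ryr1 by 1.63 ± 0.34 (limma, adjusted p = 0.00715). In the slow list Mybpc1, slow myosin-binding protein C, rose by 2.35 ± 0.50 (limma, adjusted p = 0.00783) and the slow tropomyosin Tpm3 fell by 2.54 ± 0.57 (limma, adjusted p = 0.0144). These were 1 of 10 tested other fast-fibre genes, 3 of 15 striated muscle genes and 2 of 10 slow-fibre genes. Of all rows tested in skeletal muscle, 2.22% were called lower and 3.36% higher. Tpm3 had values on 3 arrays only. Of the embryonic muscle list Cdh15, a cadherin of muscle precursors, rose by 2.06 ± 0.47 (limma, adjusted p = 0.0152), 1 of 4 tested, and the other 3 lay below 0 without passing (Ncam1 -0.97, Myh3 -0.50 and Chrna1 -0.26, named after their values were seen). Cdh15 had values on 3 arrays only. Of the smooth muscle list Mylk, myosin light chain kinase, fell by 1.63 ± 0.46 (limma, adjusted p = 0.0411), 1 of 5. Its arrays ran from -3.38 to 0.04. Cidea of the brown fat list (1 of 5) and Slc4a1 of the erythroid list (1 of 3) also rose in skeletal muscle, by 1.84 and 2.02. Each had values on 3 arrays only, from 1.21 to 2.36 for Cidea and from 0.43 to 4.69 for Slc4a1. Of the same lists Dio2 (-1.11) and Cox7a1 (-0.58) of brown fat had ratios below 0 without passing. So did Hba-a1 (-0.82) and Alas2 (-0.62) of erythroid cells. Prdm16 (0.94, above 0 on all 4 arrays) and Ppargc1a (0.39) of brown fat had ratios above 0 without passing. The genes of these lists that did not pass were named after their values were seen. In spleen Cidea rose by 1.56 ± 0.39 (limma, adjusted p = 0.0499), 1 of 6 brown fat genes tested there (0.597% of rows were called higher). The calls of these lists were not followed gene by gene under the alternative fits.

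**Figure D4:**
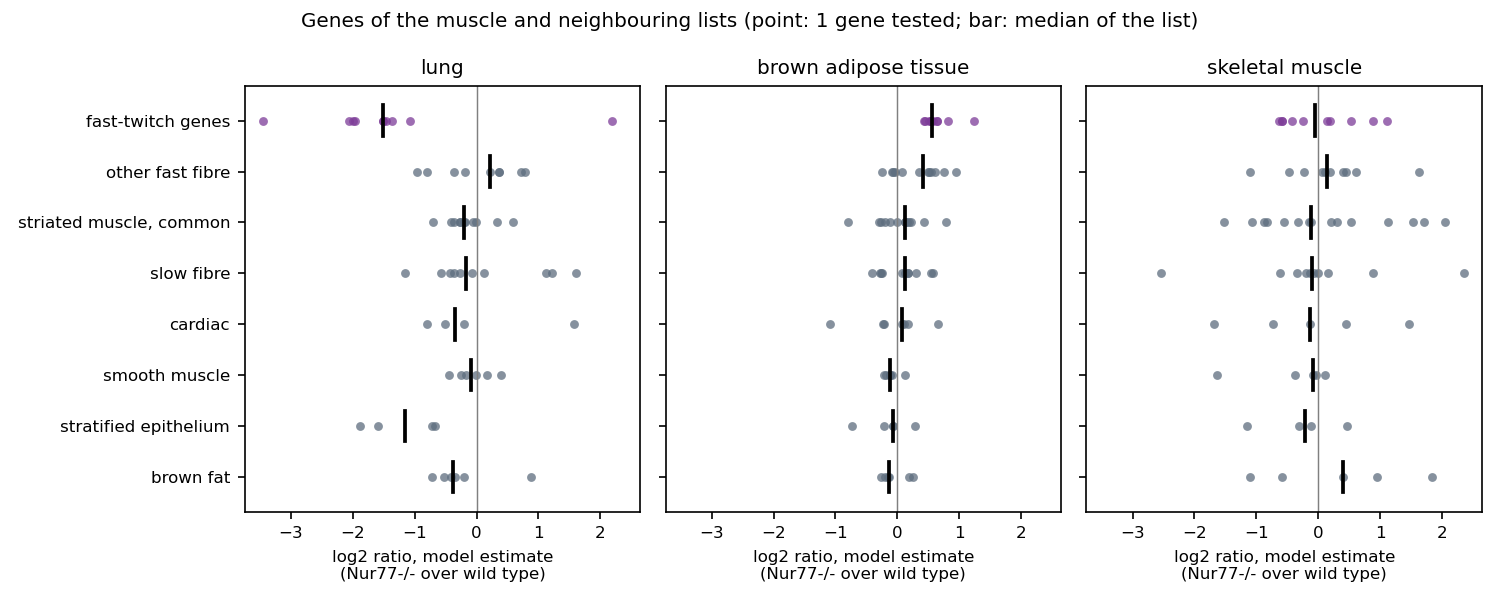
Model log2 ratio, Nur77-/- over wild type (horizontal axis), of every tested gene of 8 lists in lung, brown adipose tissue and skeletal muscle; each point is 1 gene and each bar the list's median. The members' median is -1.51 in lung and 0.56 in brown adipose tissue, and the other muscle lists lie closer to 0 in these organs. Since lung and brown adipose tissue chose the members, nothing is read from that difference.

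Markers of other cell types that could lie beside a dissected organ were also measured. In lung the stratified epithelium markers had a median of -1.16, and 4 of the 4 tested were below 0 (Krt5 -1.88, Krt15 -1.60, Sprr1a -0.72 and Krt14 -0.67), with adjusted p-values between 0.387 and 0.999 by limma. All 4 were named after their values were seen. Their array medians were -1.54, -0.81, -0.48 and -1.38. Smooth muscle markers had -0.09 in lung. The brown fat markers had a median of -0.14 in brown adipose tissue (6 tested, 4 below 0) and of -0.38 in lung, where 5 of 6 were below 0 (Ucp1 -0.72 on average and below 0 on all 4 arrays, named after its values were seen) and the list's array medians stood at -0.41 to -0.31 relative to the medians of all values. The part of these cell types in the members' ratios was not tested.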

How the data were processed

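RNA of 6 organs of Nur77-/- and wild-type mice was compared on 24 two-colour arrays. Labelling started from 20 µg of total RNA, per the labels' protocols. The authors' deposited values were taken as log2 ratios, with the base read from the values; for software, background correction, centring and direction the sources used here give nothing. No value lay between sizes of 9.94 and 15.70; the 4874 beyond (1.24% of 392774), which include 4 values of the members' probes, were treated as not measured (size above 12). All 4874 were above 0 where the mutant pool carried Cy5 and below 0 where it carried Cy3. Read as mutant over wild type, Cy5 was thus the brighter channel in all of them.

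The platform table names 1 gene for 13891 of 20205 probes, several for 5 and none for 6309; RefSeq's gene table (GRCm38.p6) holds the Entrez numbers of 13855 and changed 0 symbols. Averaging probes per symbol gave 16148 rows. Testing in an organ needed values on at least 3 of its 4 arrays and in each dye orientation.

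limma 3.58.1 (lmFit and eBayes, R 4.3.3) fitted 6 organ coefficients and 1 dye term to all 24 arrays, uncentred, with Benjamini-Hochberg adjustment over all rows tested in an organ and a threshold of 0.05. Standard errors are the model's; the number of arrays limits the precision. Medians over genes are of model ratios. The members and all gene lists were chosen with earlier results of these data known. All members are named; of the other lists, up to 4 genes past the test in an organ, with Nr4a1 and the 5 genes most like the members' mean; other names are said to be outside this rule. The limma fit was tested on simulated data. Promoters were read with Python 3.11.15. Alternatives were array weights, centring, scaling, other dye terms, each organ alone, the large values kept, complete rows, 1 probe per gene, each replicate left out, the replicate number as a block and turned signs.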

Additional observations from a re-analysis of the deposited data

Results flagged for a closer look

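In 47 groups of 4 arrays, 4 had an array far from the other 3, while chance gives about 1 in 20 such groups (Dixon's test). Tnnc2 had -6.74 on lung replicate 2, against -2.74 to -1.91 on the other arrays. Ckm had 0.28 on skeletal muscle replicate 4, against 1.32 to 1.46. Testis replicate 2 stood apart for 2 genes, with -0.67 for Myoz1 (0.02 to 0.15 on the others) and -0.35 for Ckm (0.29 to 0.37).

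Some genes with values on all 4 arrays of 2 organs had opposite signs on every array of them; none of these single differences was tested, and those with lung or brown adipose tissue chose the genes. Lung minus brown adipose tissue was -4.10 for Tnnc2, -2.28 for Tnnt3 and -2.39 for Myoz1. Myoz1 differed by -2.26 between lung and spleen, and Ckm by -3.17 between lung and skeletal muscle. Brown adipose tissue minus skeletal muscle was 1.28 for Tnnc2 and 1.09 for Myl1. Myl1 differed by -1.76 between skeletal muscle and testis, and Myh4 by 0.90 between brown adipose tissue and heart. The Myl1 testis mean includes 5.07 from 1 probe on replicate 2, where the other Myl1 probe read 0.58. Among genes with a missing array, Mylpf was below 0 on its 3 skeletal muscle arrays and above 0 on its 3 lung arrays and all 4 of brown adipose tissue.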

How the results depend on the processing

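The direction of the lung and brown adipose tissue medians was the same under every alternative run, but counts of called genes moved. In lung 3 of the 10 genes were called lower; the count was 5 with array weights and with 1 probe per gene, 1 with each array centred and without lung replicate 2, 0 with lung fitted alone and with the signs of the Cy3 arrays turned, and 0 to 1 when each replicate number was left out. The lung median of -1.51 became -1.85 with centring and scaling, -1.83 with 1 probe per gene and -0.27 with turned signs, which reads the ratios as Cy5 over Cy3; it was -1.83 to -1.53 with replicates left out. The brown adipose tissue median of 0.56 became 1.46 with centring and scaling and 0.22 with turned signs. In skeletal muscle 1 gene, Myl1, was called lower with 1 probe per gene, and otherwise 0. The call of Tnni2 in spleen was lost (0 called) with array weights, centring, centring and scaling, spleen alone, complete rows only, the replicate block (adjusted p = 0.0517) and turned signs; with replicates left out the count was 0 to 1. Between all 6 organs 2 genes were called, against 5 with array weights and with 1 probe per gene, 1 with centring, 0 with turned signs and 0 to 1 with replicates left out. Between the 4 organs 1 was called with array weights, against 0. Tnni2 in lung, a called gene, reversed to 0.16 with turned signs; of genes not called, Mylpf in lung became -0.42 and Myl1 in lung 0.61, and Mylpf in brown adipose tissue -0.55. In all, 24 of 55 ratios of the 10 genes changed sign with turned signs. As deposited, Nr4a1 had means below 0 in both dye orientations in every organ. Which reading of the signs holds was not tested. The causes were not tested, other than that leaving out arrays leaves fewer samples.

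The replicate numbers are taken as names only. Across organs, same-numbered arrays, which share the dye, had a median correlation of 0.044 (9 of 60 pairs above 0.1). Arrays of the same dye with other numbers had 0.046 (8 of 60), and arrays of opposite dye -0.043 (0 of 120). Of the 24 arrays, 12 correlated best with their own number. Over all rows, skeletal muscle had 266 called lower and 402 higher, against 23 and 173 with array weights and 105 and 447 with centring. Repeat hybridisations of 1 pair of pools, weak correlation between dye orientations and an unstated direction limit every ratio.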
